A study of Canis lupus familiaris with 12 samples.

Results

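The expression of 3 genes for cell surface adhesion molecules, EPCAM, MCAM and THY1, was followed in MDCK cells that carry a repressor of E-cadherin. They were picked by gene symbol, with earlier results of these data known, from the 4325 genes that the probe annotation names on the array, and they are read by 5 of 13056 probes. Because their differences from the control were known when they were chosen, their values below are a description and carry no test. EPCAM (Entrez Gene 4072) has 2 spots of 1 cDNA clone, MCAM (Entrez Gene 4162) has 2 spots of 1 clone, and THY1 (Entrez Gene 7070) has 1 spot. All 12 arrays gave a value at each of these spots, except for 1 missing MCAM spot on the Cy3 array of E47 sample 1.

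MDCK is an epithelial line from dog kidney, and its transfectants with the transcription factors Snail, Slug or E47 were each compared with the MDCK-CMV control on 2-colour Oncochip arrays. For each factor, sample 1 and sample 2 were run on 1 array with the transfectant in Cy5 and 1 with it in Cy3, 4 arrays in all. The labels give no culture conditions or constructs and do not say whether a transfectant is a single clone, what the CMV control carries, or whether samples 1 and 2 came from separate cultures. The probe table carries human gene identifiers, while the RNA is from dog. A ratio shows no level in either cell, so the epithelial identity of the cells could not be checked against marker levels, and fewer cells expressing a gene cannot be told apart from less RNA per cell.

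EPCAM is a transmembrane glycoprotein of epithelial cells that mediates homotypic contact between cells, and it can be cut so that its intracellular part acts with beta-catenin in the nucleus. MCAM, also called CD146, is an immunoglobulin superfamily receptor known from melanoma, endothelium and pericytes, and it binds laminins. THY1, also called CD90, is a small immunoglobulin-like protein held in the outer leaflet by a glycosylphosphatidylinositol anchor, found on thymocytes, neurons and fibroblasts, and it is bound by integrins of other cells. In an epithelial to mesenchymal transition, epithelial surface proteins are commonly lost and mesenchymal ones gained.

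The direction of every ratio is assumed. The dye given to the transfectant is known from the labels, the numerator of the ratio is not, and the deposited signs did not follow the dyes: with the same labelled dye, samples 1 and 2 of Snail correlated with r = -0.59 on the Cy5 arrays. Over all probes, the 11 pairs of arrays of a transfectant with opposite apparent orientation correlated between -0.74 and -0.37, and the 7 pairs with the same orientation between 0.26 and 0.68. All Snail 2 and Slug 1 arrays, together with E47 2 in Cy5, were therefore multiplied by -1, which places CDH1, the gene of E-cadherin that these factors are known to repress, below the control. The arrays of each transfectant aligned with each other in the same way when the probes of CDH1, EPCAM, MCAM and THY1 were left out. CDH1 still set the direction of each transfectant as a whole, so this alignment is no check of that direction. SNAI1, the gene of Snail, then lay above the control by 1.04 in Snail 1 and 2.37 in Snail 2 on the log2 scale. With the sign of a transfectant turned, each log2 ratio keeps its size and changes its sign, and calls of higher and lower change places, so that EPCAM would be the higher and MCAM the lower one, and in Snail THY1 the higher one.

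EPCAM was far below the control in 1 numbered sample of every transfectant and nearer to it in the other one. Its log2 ratio averaged over spots and arrays was -0.18 in Snail 1 and -3.00 in Snail 2. In the Slug transfectant it was -2.78 in sample 1 and -0.96 in sample 2. In the E47 transfectant it was -0.36 in sample 1 and -2.69 in sample 2. Snail 2, Slug 1 and E47 2 thus carried EPCAM at levels 7.98-fold, 6.85-fold and 6.46-fold below the control, while Snail 1, Slug 2 and E47 1 lay 1.13-fold, 1.94-fold and 1.28-fold below it. In Snail 1 the first spot averaged -0.36 and the second 0.003, so that sample lay below the control by the first spot alone.

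The mean over both samples hides this split. It was -1.59 ± 1.99 in Snail, -1.87 ± 1.28 in Slug and -1.53 ± 1.65 in E47 (SD, n = 2 samples each), and the SD exceeded the size of the mean in Snail and E47 but not in Slug. Between the samples of Snail, EPCAM differed by 2.82 on the log2 scale, the largest difference among 3768 genes with both samples. In E47 the difference was 2.33, the third among 3966 genes, and in Slug it was 1.82, which ranked 15 among 4053 genes. The median gene differed between samples by 0.225 on the log2 scale for Snail, by 0.206 for Slug and by 0.180 for E47.

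**Figure D1:**
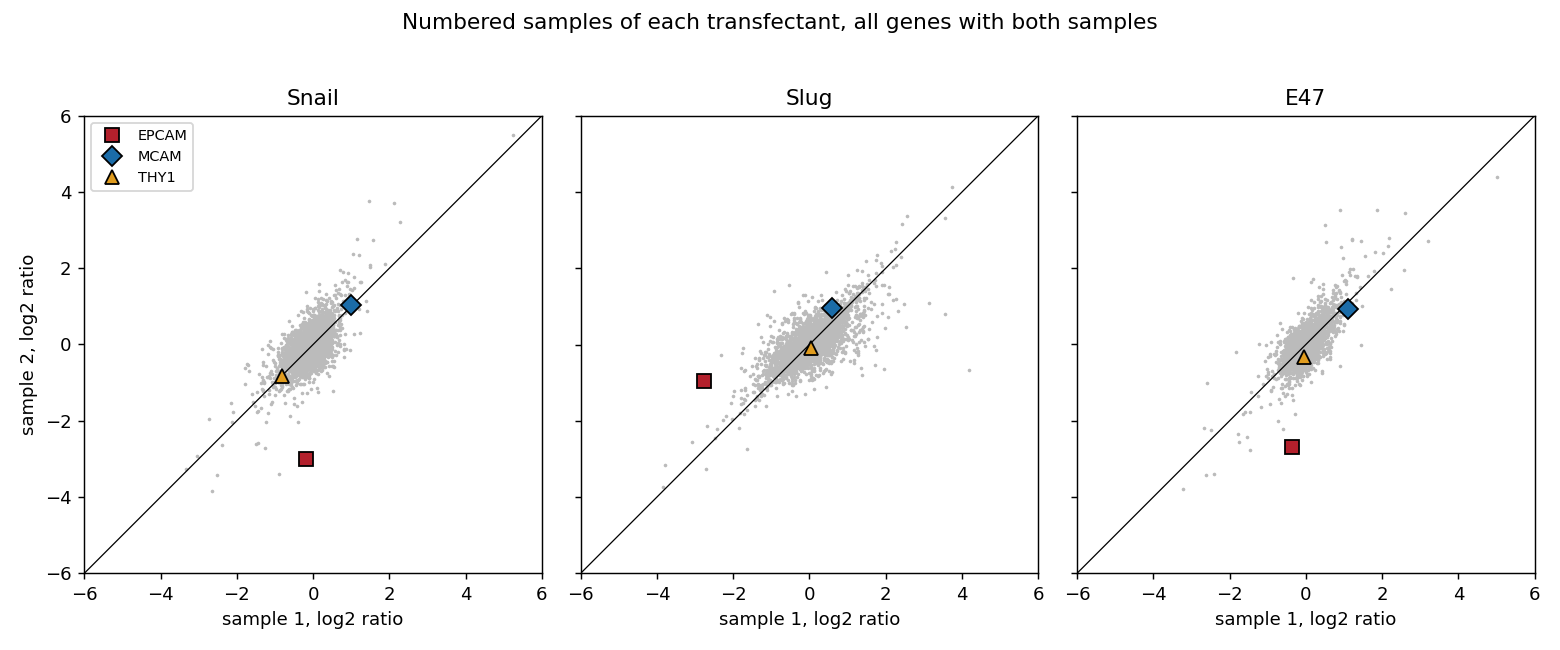
Log2 ratio over the control in sample 2 (vertical axis) against sample 1 (horizontal axis) for every gene with both samples in Snail, Slug and E47, with EPCAM (square), MCAM (diamond) and THY1 (triangle) marked and the line of equality drawn. EPCAM lies far off the line in each panel, with 2.82 between the samples of Snail, 1.82 in Slug and 2.33 in E47, while MCAM and THY1 lie near it.

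The split of EPCAM held on single arrays, though in Slug it was narrow on the Cy5 arrays, at -2.61 in sample 1 and -1.81 in sample 2. The Cy5 and Cy3 arrays gave -3.05 and -2.94 in Snail 2, -2.61 and -2.94 in Slug 1, and -2.80 and -2.59 in E47 2. In Snail 1 they gave -0.25 and -0.11. The reversed dyes of a low sample therefore differed by 0.105 to 0.334, against 2.82 between the Snail samples. The arrays of E47 1 were further apart, at -0.87 with the transfectant in Cy5 and 0.15 with it in Cy3. Those of Slug 2 were furthest apart, at -1.81 and -0.11. The dyes differed by 1.03 in E47 1, against 2.33 between the E47 samples. In Slug 2 they differed by 1.70, against 1.82 between the Slug samples.

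The value of Slug 2 rests on a single spot. On its Cy5 array the EPCAM spots gave -3.27 and -0.35, and on its Cy3 array -0.07 and -0.15. The gap of 2.92 between the spots of that Cy5 array was matched or exceeded by 13 of 2046 clones with duplicate spots, EPCAM among them, where the median gap was 0.460. By the second spot alone Slug 2 was at -0.25, against -2.82 in Slug 1 by the same spot. By the first spot alone Slug 2 was at -1.67, against -2.73 in Slug 1. On the Cy5 arrays the first spot was lower in Slug 2, at -3.27, than in Slug 1, at -2.46. Over both dyes of Snail 2 the spots gave -3.30 and -2.70, and in E47 2 they gave -3.13 and -2.25, so both spots were low there. The spots of EPCAM were less alike than the median clone on 8 of 12 arrays, and on the Cy3 array of E47 2 they gave -3.11 and -2.06.

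The samples with low EPCAM overlap with the arrays whose sign was turned. On the 5 turned arrays EPCAM lay between -3.05 and -2.61, and on the 7 arrays kept as deposited between -2.59 and 0.15. In E47 2 the Cy5 array was turned and the Cy3 array was not, and these gave -2.80 and -2.59. MCAM and THY1 show no such division: MCAM lay between 0.56 and 1.06 on the turned arrays and between 0.59 and 1.31 on the kept ones, and THY1 between -1.05 and 0.05 and between -0.99 and 0.14. Turning an array changes the sign of a ratio and keeps its size. As deposited, the EPCAM spots lay between 2.48 and 3.40 in Snail 2 and between -0.36 and 0.14 in Snail 1. Any other part of the sign in the split of EPCAM was not tested.

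CDH1 and DSP differed less between the samples. CDH1 had log2 ratios of -2.12 and -2.03 in Snail samples 1 and 2, -2.48 and -2.44 in Slug, and -1.79 and -2.36 in E47. DSP, the desmosomal plaque protein desmoplakin, had -2.38 and -2.64 in Snail, -1.63 and -1.71 in Slug, and -0.63 and -0.71 in E47. DSG2, a desmosomal cadherin, did follow EPCAM, with -0.60 and -1.87 in Snail, -1.68 and -0.68 in Slug, and -0.46 and -1.06 in E47. SNAI1 was higher in Snail 2 than in Snail 1, at 2.37 and 1.04. In Slug it had 0.70 and 0.64, and in E47 0.19 and 0.15. The part of SNAI1 in the split of EPCAM was not tested.

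MCAM was above the control on all 12 arrays, which lay between 0.56 and 1.31 once spots were averaged. It had 0.99 and 1.03 in Snail samples 1 and 2, 0.60 and 0.95 in Slug, and 1.11 and 0.94 in E47. The mean was 1.01 ± 0.03 in Snail, 0.77 ± 0.25 in Slug and 1.02 ± 0.12 in E47 (SD, n = 2 samples each), which is 2.01-fold, 1.71-fold and 2.03-fold the control. Its samples differed by 0.05 in Snail and 0.17 in E47, less than the median gene of those transfectants, and by 0.36 in Slug.

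The MCAM spots were furthest apart in Slug. On the Cy3 array of Slug 2 the spots gave 2.90 and -0.28, the widest gap of 1971 clones with duplicate spots on that array. On the Cy5 array of the same sample they gave 0.66 and 0.52, and on the Cy5 and Cy3 arrays of Slug 1 they gave 0.52 and 0.59, and 0.69 and 0.58. By the first spot alone the Slug mean was 1.19, and by the second alone it was 0.35, so the size of the MCAM difference in Slug depends on that array. Away from it, the spots of MCAM differed by less than the median clone on 9 of 10 arrays with both.

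THY1 was below the control in Snail and near it in the other transfectants. The Snail arrays gave -0.99 and -0.63 for sample 1 and -0.61 and -1.05 for sample 2, with the Cy5 array first. The mean was -0.82 ± 0.01 (SD, n = 2 samples), a level 1.76-fold below the control, though the arrays of a sample differed by 0.353 and 0.444 and so by more than the samples did. In Slug THY1 had 0.04 and -0.08, with a mean of -0.02 ± 0.08, and in E47 -0.05 and -0.34, with a mean of -0.19 ± 0.20 (SD, n = 2 samples each). THY1 has 1 spot, so no duplicate bears on these values.

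**Figure D2:**
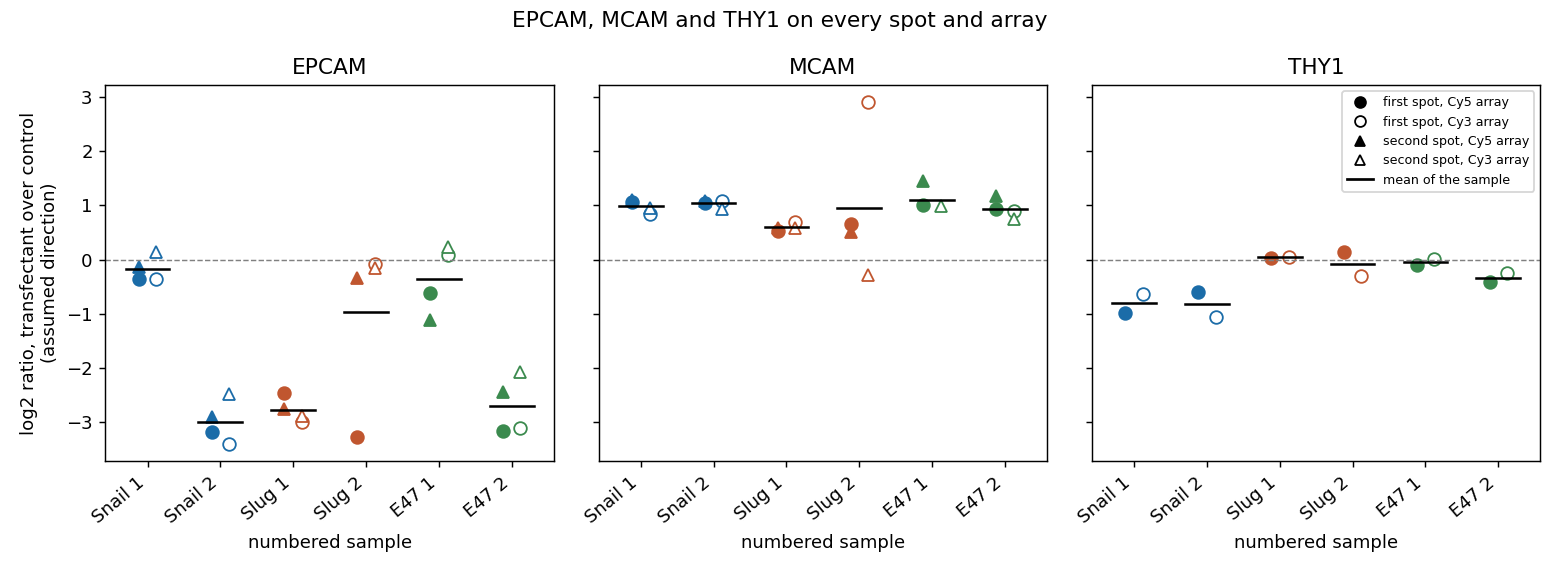
Log2 ratio of transfectant over control for each spot of EPCAM, MCAM and THY1 (vertical axis) in each numbered sample (horizontal axis). Circles are the first and triangles the second spot of a clone, filled symbols the Cy5 and open symbols the Cy3 array, and bars the mean of the sample; EPCAM is at -3.00 in Snail 2 and -0.18 in Snail 1, MCAM lies above 0 in all samples, and THY1 is lowest in Snail.

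From lowest to highest mean, THY1 ran from Snail over E47 to Slug. The samples of Snail (-0.81 and -0.83) lay apart from those of Slug and of E47, while Slug and E47 overlapped. MCAM ran from Slug over Snail to E47, where Snail and E47 overlapped and the samples of Snail lay above those of Slug (0.60 and 0.95). EPCAM overlapped between all 3 transfectants. Such gaps are common with 2 samples a group: the samples did not overlap for 59.0% of 3675 genes between Snail and Slug, 52.7% of 3617 between Snail and E47, and 49.3% of 3816 between Slug and E47. These differences between transfectants were not tested for EPCAM, MCAM and THY1.

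In the limma fit over all genes, a call is a Benjamini-Hochberg adjusted p under 0.05 for a transfectant against 0. In Snail, MCAM was called higher and THY1 lower, beside 7.22% of 3768 genes called (2.15% higher and 5.07% lower). In Slug, MCAM alone of the 3 was called, beside 21.8% of 4053 genes (12.2% higher and 9.62% lower). In E47 it was again MCAM alone, beside 5.30% of 3966 genes (3.81% higher and 1.49% lower). EPCAM was called in none, with an SE of 0.74 pooled over the transfectants. Since the choice of these genes used these contrasts, nothing is read from the calls.

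The genes whose log2 ratios ran most like those of each gene were named by Pearson correlation over the 12 arrays, which are 6 samples hybridised with reversed dyes. All correlations are descriptions among 3534 genes with a value on every array. Nearest to EPCAM were HOOK1, a microtubule linker protein (r = 0.89), KIF13B, a kinesin (0.88), DSG2 (0.88), RUNX1T1, a transcriptional corepressor (0.87), and IFI6, an interferon-induced protein (0.87). They shared its low samples at smaller size: KIF13B had -0.16 and -1.28 in Snail samples 1 and 2, -1.001 and -0.73 in Slug, and -0.09 and -0.94 in E47. HOOK1 had -0.11 and -0.87 in Snail, -0.89 and -0.44 in Slug, and -0.19 and -0.81 in E47.

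Nearest to MCAM were HMGN2, a nucleosome-binding protein (r = 0.93), DIS3, an exosome ribonuclease (0.92), RRM2B, a ribonucleotide reductase subunit (0.90), PABIR2 (0.89) and NDUFA2, a subunit of respiratory complex I (0.88). What they share with MCAM is a low value in Slug 1, where HMGN2 had -0.84 and DIS3 -0.89, against 0.60 for MCAM itself. HMGN2 lay between -0.08 and 0.24 in the other samples, while RRM2B lay between 0.25 and 0.42 in the samples other than Slug 1. The correlation runs over arrays, and MCAM was also low on the Cy5 array of Slug 2 (0.59). It was highest on the Cy3 array of Slug 2 (1.31), where its spots gave 2.90 and -0.28. The part of that array in the ranking was not tested. Nearest to THY1 were VPS35L, an endosomal sorting protein (r = 0.97), AHCYL1 (0.95), KPNA1, an importin (0.94), SRSF4, a splicing factor (0.93), and RTL8A (0.93). AHCYL1 had -0.60 and -0.71 in Snail samples 1 and 2, 0.31 and 0.13 in Slug, and 0.26 and 0.02 in E47. Among themselves, EPCAM and MCAM correlated with r = 0.44, MCAM and THY1 with -0.47, and EPCAM and THY1 with -0.02.

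**Figure D3:**
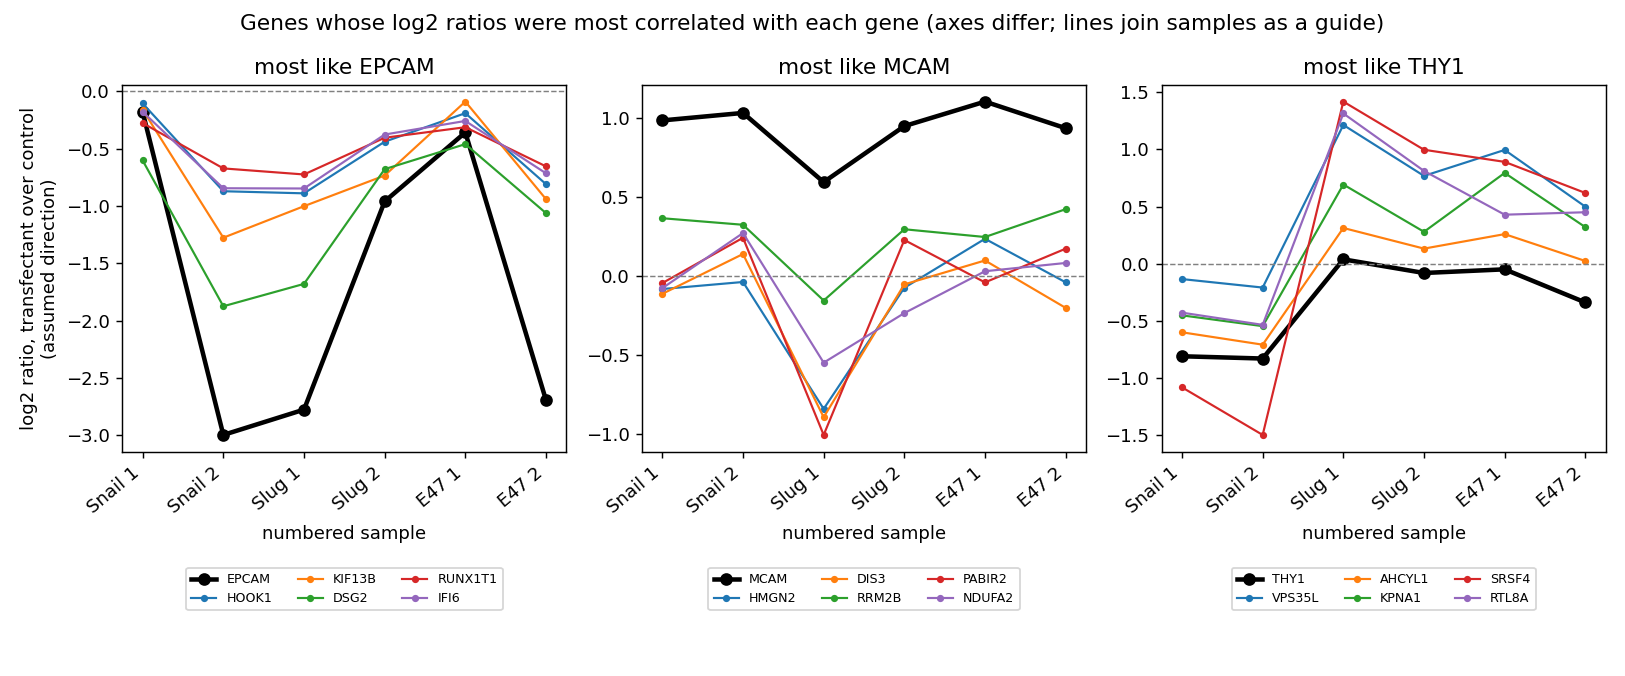
Log2 ratio of transfectant over control (vertical axis, scaled separately in each panel) in the 6 numbered samples (horizontal axis) for EPCAM, MCAM and THY1 in black and for the 5 genes most correlated with each. The genes near EPCAM are lower in Snail 2, Slug 1 and E47 2 than in the other samples by less than EPCAM is, those near MCAM dip in Slug 1, and those near THY1 are lowest in Snail.

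The counts of called genes in the lists that follow stand beside the 7.22% of genes called in Snail, 21.8% in Slug and 5.30% in E47. Of the known partners of EPCAM, 6 of 19 listed genes were measured. In Snail 3 of 6 fell and 0 rose: CDH1, MYC (-1.63, adjusted p = 0.0036) and CCND1, the gene of cyclin D1 (-0.80, adjusted p = 0.0088), the last 2 known as targets of the cleaved EPCAM. In Slug and in E47 CCND1 rose, by 0.69 (adjusted p = 0.0073) and 0.73 (adjusted p = 0.0157), and CDH1 fell, with 4 of 6 not past the test in each. CDH1 set the sign, so its fall is no finding. MYC had -0.08 in Slug and 0.22 in E47. The median of the list was -0.55 in Snail, 0.00 in Slug and 0.15 in E47, against -0.05, 0.02 and 0.01 over all genes tested. The calls of CCND1 were lost in Snail without replicate 1 (-0.69) or 2 (-0.91), in Slug without replicate 1 (0.66) and in E47 without replicate 1 (0.76) or 2 (0.70). On the Cy3 arrays alone CCND1 was not called in Snail (-0.51), Slug (0.82) or E47 (0.71), nor in Slug on the Cy5 arrays alone (0.56).

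Of the ligands and partners of MCAM, 8 of 14 were measured. WNT5A, a Wnt ligand that MCAM can bind, rose in Slug by 2.79 ± 0.65 (SE pooled over the transfectants, n = 2 samples each, adjusted p = 0.0206). Samples 1 and 2 of Slug had 2.42 and 3.15. WNT5A had 2.61 in Snail and 2.21 in E47, where it did not pass (adjusted p = 0.0512 and 0.0984). Its samples were further apart there, at 1.46 and 3.76 in Snail and 0.90 and 3.53 in E47. MSN, moesin, which links membrane proteins to actin, rose in Snail by 1.33 (adjusted p = 0.0304) and in Slug by 1.24 (adjusted p = 0.0189), and had 1.15 in E47 (adjusted p = 0.0564). FYN, a Src family kinase, rose in Snail by 0.57 (adjusted p = 0.0360) and in Slug by 0.86 (adjusted p = 0.0040), and had 0.46 in E47 (adjusted p = 0.0854). In all, 2 of 8 rose in Snail, 3 in Slug and 0 in E47 (3 at an unadjusted p under 0.05), with none called lower. The median of the list was 0.00 in Snail, 0.21 in Slug and 0.09 in E47. With a replicate block, 2 of the 8 were called higher in E47.

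Without 1 sample, WNT5A lost its call in Slug (3.15 without replicate 1, 2.42 without replicate 2), MSN in Slug (1.41 and 1.06) and in Snail without replicate 2 (0.70), and FYN in Snail (0.50 without replicate 1, 0.64 without replicate 2). With all arrays scaled to 1 spread, WNT5A (2.30) and MSN (1.02) also lost their calls in Slug. In Snail, the call of FYN was lost on the Cy5 arrays alone (0.70) and on the Cy3 arrays alone (0.44), and that of MSN on the Cy3 arrays alone (1.197).

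THY1 is bound by integrins and syndecan-4 and signals through Src family kinases, and 10 or 11 of 13 such genes were measured. SDC4, syndecan-4, rose in Slug by 0.98 (adjusted p = 0.0084) and in E47 by 0.98 (adjusted p = 0.0225), and had 0.17 in Snail. ITGAV, the alpha-v integrin subunit, rose in E47 by 1.15 (adjusted p = 0.0402), with 0.42 in Snail and 0.23 in Slug. ITGAX, an integrin subunit of leukocytes, fell in Slug (-0.56, adjusted p = 0.0334). Counting FYN, 1 of 11 rose in Snail, 2 of 10 rose and 1 fell in Slug, and 2 of 11 rose in E47, with list medians of 0.09, 0.20 and 0.18. ITGAV lost its call under a replicate block (adjusted p = 0.0535) and without E47 replicate 1 (1.51) or 2 (0.79). SDC4 lost it in E47 without replicate 1 (0.80) or 2 (1.15) and in Slug without replicate 1 (0.63), and ITGAX without Slug replicate 1 (-0.30) and with arrays scaled to 1 spread (-0.46). On the Cy3 arrays alone the calls of SDC4 in Slug (0.90) and E47 (0.90), ITGAV (1.06) and ITGAX (-0.39) were lost, and that of ITGAX also with Slug fitted alone (adjusted p = 0.0906).

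The family of MCAM, the immunoglobulin superfamily of adhesion molecules, had 18 to 21 of 54 listed genes measured. In Snail 0 of 18 passed in limma (1 at an unadjusted p under 0.05), with a median of 0.02. In Slug 3 of 21 fell: ALCAM, which pairs cells through CD6 and itself (-1.44, adjusted p = 8.08e-04), CHL1, a neural adhesion protein (-0.76, adjusted p = 0.0111), and CEACAM1, an epithelial adhesion protein (-0.63, adjusted p = 0.0234). ALCAM had 0.16 in Snail and -0.55 in E47. SIRPA, the receptor of CD47, rose in Slug by 2.47 (adjusted p = 0.0021) and in E47 by 1.98 (adjusted p = 0.0118), where it was the sole member of 20 called, and had 0.09 in Snail. The 4 of 21 called in Slug are near the 21.8% of all genes called there, and the list median was -0.23 in Slug and -0.04 in E47. CHL1 (-0.70) and CEACAM1 (-0.37) lost their calls without Slug replicate 1, and with arrays scaled to 1 spread (-0.63 and -0.53), and SIRPA lost its call in E47 without replicate 2 (1.22). SIRPA in E47 had 2.86 on the Cy5 arrays and 1.097 on the Cy3 arrays, where it was not called. CHL1 was not called on the Cy3 arrays alone (-0.86), and CEACAM1 on neither dye alone (-0.52 on Cy5, -0.73 on Cy3) nor with Slug fitted alone (adjusted p = 0.0726).

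THY1 shares its membrane anchor with 33 other listed proteins, of which 10 to 12 were measured. None passed the limma test in Snail or E47, where 4 and 1 were at an unadjusted p under 0.05. In Slug 3 of 11 fell and 0 rose: CD59, an inhibitor of complement (-0.85, adjusted p = 0.0077), and the glypicans GPC3 (-0.85, adjusted p = 0.0077) and GPC4 (-0.75, adjusted p = 0.0140). In Snail CD59 had 0.22, GPC3 0.10 and GPC4 0.58. The median was 0.18 in Snail, -0.32 in Slug and -0.04 in E47. CD59 (-0.67) and GPC4 (-0.47) lost their calls without Slug replicate 2, and GPC3 (-0.67) without Slug replicate 1. GPC4 in Slug had -1.44 on the Cy5 arrays and -0.06 on the Cy3 arrays, where it was not called, and it was not called with Slug fitted alone (adjusted p = 0.0537). CD59 had -0.48 on the Cy5 arrays, where it was not called, and -1.22 on the Cy3 arrays, and GPC3 was not called on the Cy3 arrays alone (-0.61).

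Tetraspanins, which gather adhesion molecules in membrane domains, had 10 of 22 listed genes measured. TSPAN13 fell in Snail (-1.85, adjusted p = 0.0025), in Slug (-0.84, adjusted p = 0.0189) and in E47 (-2.44, adjusted p = 8.34e-04). CD63, a tetraspanin of late endosomes, rose in Slug by 1.97 (adjusted p = 0.0016) and in E47 by 1.32 (adjusted p = 0.0159), and had 0.75 in Snail. CD151, a partner of laminin-binding integrins, fell in Slug (-1.002, adjusted p = 0.0126) and had -0.52 in Snail and -0.82 in E47. The medians were 0.10 in Snail, -0.04 in Slug and -0.10 in E47. Without Slug replicate 1 the calls of TSPAN13 (-0.66) and CD151 (-0.62) in Slug were lost, without E47 replicate 2 that of CD63 in E47 (1.04), and TSPAN13 in Slug also with arrays scaled to 1 spread (-0.72). TSPAN13 in Slug had -0.15 on the Cy5 arrays, where it was not called, and -1.53 on the Cy3 arrays. The calls of CD151 on the Cy5 arrays alone (-0.64) and of CD63 in E47 on the Cy3 arrays alone (1.16) were also lost.

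Of the selectins and their ligands, 3 or 4 of 7 were measured, and GLG1, a Golgi ligand of E-selectin, alone passed, in Slug (0.99, adjusted p = 0.0236). It lost the call without Slug replicate 1 (0.40), with arrays scaled to 1 spread (0.81), on the Cy3 arrays alone (0.75) and with Slug fitted alone (adjusted p = 0.0851). Of 18 epithelial junction genes 9 were measured. In Snail 3 of 9 fell, CDH1, DSP (-2.51, adjusted p = 1.72e-04) and CTNNA1, alpha-catenin (-0.86, adjusted p = 0.0100). In Slug CDH1, DSP (-1.67, adjusted p = 5.12e-04) and DSG2 (-1.18, adjusted p = 0.0375) fell and JUP, plakoglobin, rose by 0.82 (adjusted p = 0.0184), and in E47 CDH1 and DSP (-0.67, adjusted p = 0.0232) fell. CDH1 set the sign, so its fall is no finding, here or in the list counts with a sample left out. Without CDH1, 2 of 8 fell in Snail, 2 of 8 fell and 1 rose in Slug, and 1 of 8 fell in E47. The list median, with CDH1 in it, was -0.68 for Snail, -0.26 for Slug and -0.29 for E47. The calls of CTNNA1 (-0.70) without Snail replicate 2, of DSG2 (-0.68) without Slug replicate 1, of JUP without Slug replicate 1 (0.79) or 2 (0.86), and of DSP in E47 without replicate 1 (-0.71) or 2 (-0.63) were lost, and DSG2 (-0.97) and JUP (0.68) also with arrays scaled to 1 spread. On the Cy3 arrays alone CTNNA1 (-0.90), DSG2 (-0.75) and DSP in E47 (-0.76) were not called, and on the Cy5 arrays alone JUP (0.82) and DSP in E47 (-0.58) were not.

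**Figure D4:**
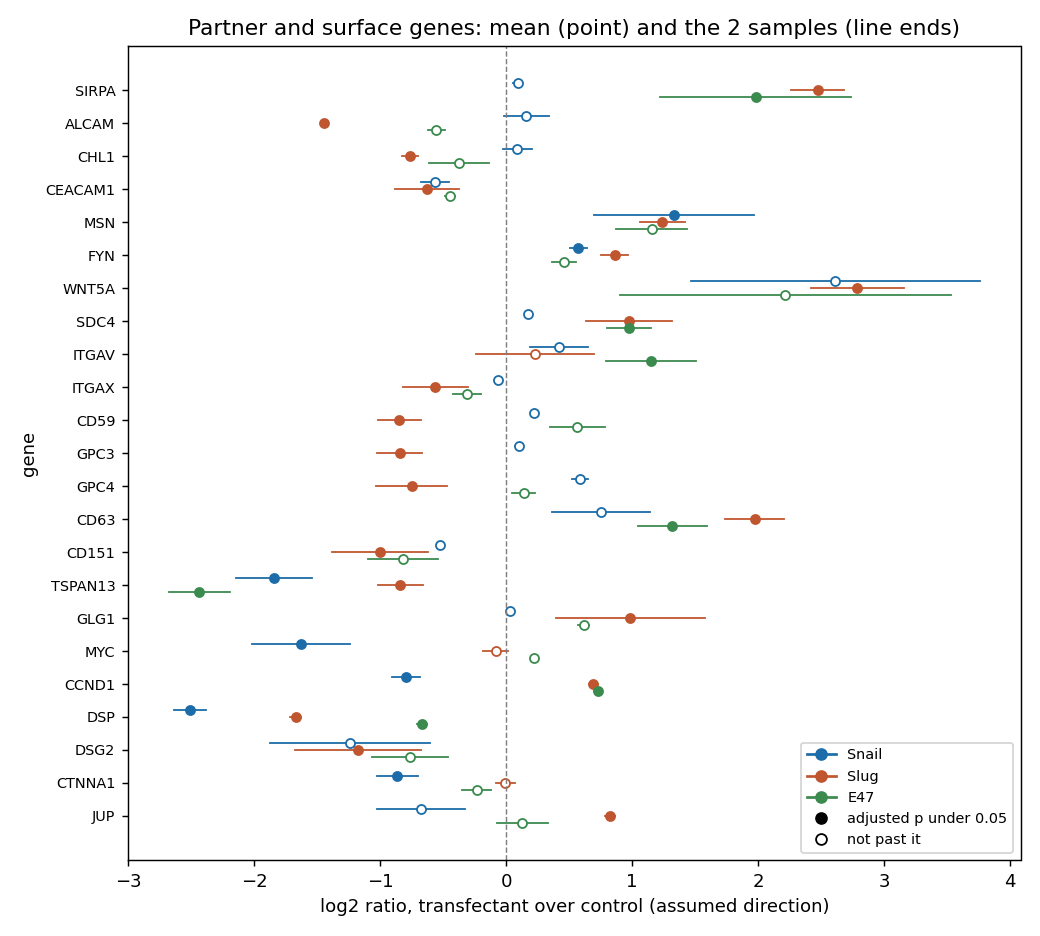
Mean log2 ratio of transfectant over control (horizontal axis, points) with samples 1 and 2 as line ends for the named partner, family and junction genes (vertical axis) in Snail, Slug and E47. Filled points passed an adjusted p of 0.05 in limma; CCND1 lies at -0.80 in Snail and at 0.69 and 0.73 in Slug and E47, and TSPAN13 lies below 0 in all 3.

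EPCAM, MCAM and THY1 are also used as markers of epithelial, endothelial and mesenchymal cells, and their values can be set beside markers of those cells, which lie outside the rule for named genes and are named after their values were seen. The counts of called markers stand beside the 7.22% of all genes called in Snail, 21.8% in Slug and 5.30% in E47. Of 4 epithelial markers other than EPCAM and CDH1 measured in Snail, 2 were called lower, KRT7 and DSP, while KRT8 and KRT18 had -0.40 and -0.18. In Slug 2 of 5 were called lower (KRT19 and DSP), while KRT7, KRT8 and KRT18 had -0.18, 0.23 and 0.14. In E47 2 of 4 were called lower (KRT7 and DSP). KRT8 had 0.42 in E47 sample 1 and -0.74 in sample 2, and KRT18 had a mean of -0.12 in E47. Of 6 fibroblast and mesenchymal markers other than THY1 in Snail, 4 were called higher, FN1, SPARC, COL1A2 and LUM, while THY1 was lower there and PDGFRA and ACTA2 had -0.41 and -0.29. In Slug 3 of 6 were called higher (FN1, COL1A2 and LUM). SPARC had 4.17 in Slug sample 1 and -0.67 in sample 2, and PDGFRA and ACTA2 had -0.41 and 0.22 in Slug. In E47 3 of 7 were called higher (FN1, SPARC and COL1A2), while VIM, LUM, PDGFRA and ACTA2 had -0.28, 0.25, 0.22 and 0.37. Of the endothelial markers other than MCAM, 0 of 5 passed in limma in Snail, 2 of 6 in Slug (TEK and ENG) and 0 of 6 in E47, with 1 at an unadjusted p under 0.05 in Snail and 1 in E47. Of 5 leukocyte markers, 0 passed in limma in Snail (1 at an unadjusted p under 0.05), 2 were lower in Slug, PTPRC and ITGAX, and 0 passed in E47 (0 at an unadjusted p under 0.05). Whether other cell types had a part in any of these values was not tested.

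In the RefSeq annotation of the dog assembly UU_Cfam_GSD_1.0, THY1 and MCAM lie on the same chromosome with 4 protein-coding genes between them. Genes beside these 2 were taken by position, outside the rule for named genes. USP2, between THY1 and MCAM, had 0.01 in Snail, 0.00 in Slug and -0.11 in E47. CBL, next to MCAM, had 0.27 in Snail, 0.17 in Slug and 0.28 in E47. NECTIN1, next to THY1, had -0.31 in Snail, -0.37 in Slug and 0.01 in E47. None of these neighbours passed in the limma fit (lowest adjusted p = 0.0899, NECTIN1 in Slug).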

How the data were processed

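The deposited table holds, per array, the authors' log2 ratio of the 2 channels for 13056 probes, and missing values are empty. The log base was read from the numbers, since antilogs of low values fall on whole thousandths. Array medians lay between -0.06 and 0.06. The sources used here name no scanner, background correction, centring or filter, so signal over background is unknown and precision is limited by how many arrays there are. Arrays carried values for 10654 to 12982 probes.

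Probes with 1 gene symbol were used (8047; 276 had several and 4733 none). Arrays were turned to a common sign as described above, spots of a clone and then clones of a gene were averaged, and so were the Cy5 and Cy3 arrays of each sample, where both had a value. limma 3.58.1 in R 4.3.3 fitted the 6 samples as 3 groups without an intercept, each tested against 0, two-sided, with Benjamini-Hochberg adjustment over all genes tested. All 3 comparisons share the control, whose own spread such a test does not hold, and the p-values cover no more than the spread between samples 1 and 2, which may be technical. The script was tested on simulated data with known changes.

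The genes and lists were chosen with earlier results of these data known. From each list, members past adjusted p of 0.05 were named, up to 4 per list and transfectant. For each of EPCAM, MCAM and THY1 the 5 most correlated genes were named, together with CDH1 and SNAI1. Alternatives were array centring and scale, single dyes, incomplete samples, signs from the labelled dyes, a replicate block, single-group fits, complete genes, other probe summaries and leaving out each sample.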

Additional observations from a re-analysis of the deposited data

Results flagged for a closer look

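The results below were picked out because both samples of one transfectant lay above the control and both samples of another lay below it; the differences between the transfectants were not tested. None of EPCAM, MCAM and THY1 met this. The share of all genes that would meet it was not counted. Samples that only did not overlap were common, at 59.0% of genes between Snail and Slug, 52.7% between Snail and E47, and 49.3% between Slug and E47. The partner, anchored and junction genes below were named because they were called in a transfectant, and that choice favours such differences. Among the partners of EPCAM, CCND1 differed by -1.49 on the log2 scale in Snail minus Slug and by -1.52 in Snail minus E47, and MYC by -1.85 in Snail minus E47. Among the anchored surface proteins, CD59 differed by 1.07 in Snail minus Slug and by -1.41 in Slug minus E47, GPC3 by 0.95 in Snail minus Slug, and GPC4 by 1.34 in Snail minus Slug and by -0.89 in Slug minus E47. JUP differed by -1.50 in Snail minus Slug.

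The genes most like THY1 were picked by correlation with it over the same arrays, and THY1 was low in Snail. Their lower values in Snail follow from how they were picked and are no separate result. Their differences in Snail minus Slug were -2.50 for SRSF4, -1.54 for RTL8A, -1.16 for VPS35L, -0.98 for KPNA1 and -0.88 for AHCYL1. In Snail minus E47 they were -2.04 for SRSF4, -0.92 for RTL8A, -0.92 for VPS35L, -1.06 for KPNA1 and -0.80 for AHCYL1. Of the genes most like MCAM, picked in the same way, NDUFA2 differed by -0.45 in Slug minus E47.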

How the results depend on the processing

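The sign of the arrays mattered most. Signs taken from the labelled dyes (Cy5 as numerator) give the Cy5 and Cy3 arrays of a sample opposite signs. As deposited, those arrays correlated between 0.26 and 0.68 in every sample but E47 2 (-0.74). Opposite signs thus largely cancel in the average, and in E47 2 both arrays are reversed against the main signs. The loss of calls and the changes of side follow from this and are no check of the direction. With these signs, limma called 0 genes in each transfectant (50, 209 and 207 at an unadjusted p under 0.05 in Snail, Slug and E47). EPCAM stood at -0.0068, -0.51 and 1.09, MCAM at 0.0332, -0.16 and -0.41, and THY1 at -0.20, 0.11 and 0.14 in Snail, Slug and E47. Called genes that changed side were CCND1 (-0.41 in E47, 0.24 in Snail), CD59 (0.28 in Slug), CD63 (-0.72 in E47), CDH1 (0.92 in E47, 0.16 in Slug, 0.18 in Snail), DSP (0.39 in E47), FYN (-0.0213) and MSN (-0.0675) in Snail, ITGAV (-0.66), SDC4 (-0.39) and SIRPA (-0.69) in E47, SNAI1 (-0.37 in Snail) and TSPAN13 (1.02 in E47, 0.0484 in Slug).

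Without 1 sample, the mean of EPCAM is the other sample's value, from -3.00 to -0.18 in Snail, -2.78 to -0.96 in Slug and -2.69 to -0.36 in E47. Under the alternatives other than the labelled-dye signs, EPCAM, MCAM and, in Snail, THY1 kept their side of the control. The SD over 2 samples was 0.014 for THY1 and 0.034 for MCAM in Snail, but 1.28 to 1.99 for EPCAM. A list of values that moved by more than that SD is thus no measure of which gene is steadier. Leaving out a sample can never move a mean that far. EPCAM is not listed, though in Slug its first spot gave -2.20 and its second -1.53. In E47 its Cy5 arrays gave -1.83 and its Cy3 arrays -1.22. Values that moved by more than the SD of the samples were MCAM in Snail with arrays centred (1.05), scaled (1.097), Cy5 alone (1.07) or Cy3 alone (0.95); MCAM in Slug by the first (1.19) or second spot (0.35); MCAM in E47 with Cy5 (1.14) or Cy3 (0.90) alone; THY1 in Snail centred (-0.78), scaled (-0.90), Cy5 (-0.80) or Cy3 (-0.84) alone; and THY1 in Slug with Cy5 (0.0826) or Cy3 (-0.12) alone.

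Counts of called genes moved by over 1.5 times with Cy3 arrays alone (56 in Snail, 372 in Slug, 42 in E47), with a transfectant fitted alone (568, 539 and 391), and in Slug with arrays scaled (436) or Cy5 alone (576). Leaving out each sample gave 34 to 345 calls in Snail, 339 to 891 in Slug and 26 to 275 in E47, the lowest without Snail replicate 2, Slug replicate 1 and E47 replicate 2. With arrays centred, 36.9% of the calls in Snail were higher, against 29.8%; the share was 43.8% without Snail replicate 1 and 5.88% without Snail replicate 2. List counts without 1 sample ran from 2 to 6 (Slug) and 0 to 1 (E47) for the immunoglobulin family, 1 to 2 (Slug) and 1 (E47) for EPCAM partners, 0 to 1 (Snail), 1 (Slug) and 0 to 1 (E47) for MCAM partners, 0 (Snail), 1 to 3 (Slug) and 0 (E47) for THY1 partners, 0 to 1 (E47) for anchored proteins, 1 to 4 (Slug) and 1 to 2 (E47) for tetraspanins, 0 to 1 (Slug) for selectins, and 2 to 3 (Slug) and 1 (E47) for junction genes.

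The labels do not say whether equal sample numbers pair samples of different transfectants, and the main fit did not pair them. Differences of sample 1 minus sample 2 correlated across genes with 0.02 between Snail and Slug. They correlated with 0.23 between Snail and E47 and with -0.06 between Slug and E47. With the replicate block, 294, 903 and 231 genes were called in Snail, Slug and E47, and list counts moved to 2 for MCAM partners and 1 for THY1 partners in E47 and to 2 for tetraspanins in Snail. Over the 6 sample means, a setting chosen after seeing the data, the genes named as most alike correlated with r of 0.908 to 0.992 with EPCAM, 0.824 to 0.982 with MCAM and 0.942 to 0.988 with THY1. The block changed 1 of 38 calls of named genes, ITGAV in E47. Of these 38 calls, 19 were lost with Cy3 arrays alone, 8 with Cy5 alone, 9 with arrays scaled and 4 with a transfectant fitted alone. The causes of these changes were not tested. Signal over background is unknown, so which low signals limit a ratio cannot be stated.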
